A study of Homo sapiens with 24 samples.

Results

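Heat shock proteins and DNAJ chaperones were described across 24 one-colour microarrays of LUHMES aggregates that had received rotenone or its vehicle. The members were the protein-coding genes whose symbol begins with HSPA, HSPB, HSPD, HSPE, HSPH, HSP90 or DNAJ, found on the array through the RefSeq accession of each probe. There were 75 such genes, of which 73 had a named probe (95 probes in all), and all 73 were among the 21239 genes tested; HSPE1-MOB4 and DNAJC25-GNG10 had no named probe. By family there were 14 HSPA genes, 9 with the HSPB prefix, 3 of HSPD, HSPE and HSPH, 3 of HSP90 and 44 DNAJ genes. HSPBP1 and HSPBAP1 carry the HSPB prefix but are binding partners of heat shock proteins rather than small heat shock proteins.

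LUHMES is a line of human mesencephalic cells immortalized by v-myc, whose tetracycline-controlled expression is shut off to let the cells become post-mitotic dopaminergic-like neurons. All 8 groups were aggregates of this 1 line, kept under constant gyratory shaking and differentiated with tetracycline, cAMP, GDNF and N2 supplement. Rotenone, an inhibitor of mitochondrial complex I, was given from a DMSO stock on day 7 at 50 nM over 12 h, at 50 nM over 24 h or at 100 nM over 24 h, and controls received the DMSO of the 100 nM dose. RNA was taken on day 8 with no recovery, or on day 15, when the compound had been washed out and 7 days had passed without it, with 3 arrays for each of the 4 treatments on each day. A DMSO group of 12 h was not analysed here, so the 12 h arrays were set against the same DMSO arrays as the 24 h arrays. The labels do not say whether the 3 replicates were separate cultures, so p-values measure the spread between these samples, which may be technical.

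The replicate number was also the slide number. Slide 1 was scanned apart from slides 2 and 3, its labels call for a batch correction, and slide 2 was read with another version of the feature extraction software; each slide held every group once. The share of spots well above background was 48.1 to 80.5% per array, highest on slide 1 (64.4 to 80.5%). Of the 73 members, 61 were well above background on every array and 12 were not, among them HSPA1A (3 of 24 arrays), HSPB7 (12) and HSPB8 (13), and no member was saturated. Of 12 dopaminergic markers, all were measured, and SLC18A2, the vesicular monoamine transporter, was not well above background on any array of 5 of the 8 groups. The 9 pan-neuronal markers had a summed log2 level of 17.93 to 18.39 on every array, and the 4 microglial markers 5.67 to 6.34. In day 8 DMSO, 5 astrocyte markers summed to 6.41 to 6.89. The 6 markers of dividing cells summed to 8.37 to 9.12 there, and 4 oligodendrocyte-lineage markers to 9.49 to 9.64. These sums cover different genes and are not comparable between the sets. Day 15 DMSO replicate 1 had a scan name that reads 12 h and does not name DMSO; it was kept under its label, and every day 15 comparison uses it. Values below are normalized log2 intensities, comparable between arrays for 1 gene but not between genes, and a gene was called when limma's moderated test gave an adjusted p (Benjamini-Hochberg over all 21239 genes) under 0.05.

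HSP70 proteins (HSPA) bind exposed hydrophobic stretches of unfolded proteins in cycles driven by ATP. J-domain proteins (DNAJ) deliver the clients and start hydrolysis, HSP110 (HSPH1) and other factors exchange the nucleotide, and HSP90 takes over clients that are close to folded. Small heat shock proteins (HSPB) hold unfolding proteins without ATP. Separate sets serve the cytosol, the endoplasmic reticulum (ER) and the mitochondrion; in stressed cells HSF1 switches on many cytosolic members, and the unfolded protein response switches on those of the ER. In dopaminergic neurons several members are known from inherited parkinsonism, among them DNAJC6 (auxilin) and DNAJC13.

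The promoters of 4 members are shown as examples of the cytosolic and the ER sets, chosen without a fixed rule. Between 12 h and 24 h of 50 nM, HSPA1B and HSPA5 were called. HSPA8 and HSP90B1 were not (adjusted p = 0.27 and 0.34), and HSPA2, also called, is not shown. Each is the stretch of 250 bases before the annotated gene start in RefSeq (build GRCh38.p14), 5′ to 3′ on the strand of the gene, and capitals mark motif matches. For HSPA8 (constitutive HSC70; chr11:123062137-123062386, minus strand), capitals mark heat shock elements of 3 units; for HSPA1B (inducible HSP70; chr6:31827488-31827737, plus strand), CCAAT boxes read on the opposite strand; for HSPA5 (BiP; chr9:125241344-125241593, minus strand) and HSP90B1 (GRP94; chr12:103930160-103930409, plus strand), ER stress elements on either strand.
HSPA8: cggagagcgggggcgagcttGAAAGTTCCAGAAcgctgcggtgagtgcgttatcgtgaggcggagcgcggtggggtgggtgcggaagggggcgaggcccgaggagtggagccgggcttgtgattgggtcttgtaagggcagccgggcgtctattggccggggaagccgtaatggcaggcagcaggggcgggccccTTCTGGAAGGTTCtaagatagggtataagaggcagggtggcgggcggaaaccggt
HSPA1B: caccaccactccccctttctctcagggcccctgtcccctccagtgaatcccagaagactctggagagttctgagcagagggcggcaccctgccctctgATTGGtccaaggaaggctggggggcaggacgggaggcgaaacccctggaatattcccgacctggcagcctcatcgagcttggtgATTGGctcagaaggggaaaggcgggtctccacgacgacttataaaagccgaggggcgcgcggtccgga
HSPA5: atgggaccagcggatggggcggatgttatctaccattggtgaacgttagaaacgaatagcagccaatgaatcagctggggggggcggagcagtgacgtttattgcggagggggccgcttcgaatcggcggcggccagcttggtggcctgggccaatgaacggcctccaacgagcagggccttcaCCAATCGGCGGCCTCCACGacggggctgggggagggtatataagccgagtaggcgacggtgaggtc
HSP90B1: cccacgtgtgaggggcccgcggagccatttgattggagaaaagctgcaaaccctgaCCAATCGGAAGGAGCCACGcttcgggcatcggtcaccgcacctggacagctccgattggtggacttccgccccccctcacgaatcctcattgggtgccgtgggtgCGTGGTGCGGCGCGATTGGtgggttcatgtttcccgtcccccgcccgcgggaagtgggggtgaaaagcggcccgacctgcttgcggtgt

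Windows of 250 bases before to 50 after the gene start were at hand for 66 of the 73 members (87 windows, since a gene can have several starts) and 35116 windows in all. The heat shock element, searched on both strands as GAA, TTC and GAA or as TTC, GAA and TTC with 2 free bases between units, occurred in 7 member windows (8.05%) and in 0.49% of all windows; the 7 genes were HSPA6, HSPA8, HSPD1, HSP90AA1, HSP90AB1, DNAJA1 and DNAJB6. The ER stress element, CCAAT and CCACG with 9 free bases between them, which contains a CCAAT box, occurred in 2 member windows (2.3%, HSPA5 and HSP90B1) and in 0.0769% of all windows. The amino acid response element TGATGNAA was found in 2.3% of member windows (HSPA4L and DNAJA4) against 3.62% of all windows, and the CCAAT box in 37.9% against 34.6%. Matches describe the sequence only, and a window without one says nothing about a factor. Only exact units were matched, so the lack of a match in HSPA1B does not show that it lacks a heat shock element.

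On day 8, more of these transcripts were called lower than higher after rotenone in each of the 3 comparisons. With 100 nM for 24 h, 13 of 73 members were called (17.8%, against 9.48% of all genes), of which 11 were lower (15.1%, against 5.41%) and 2 higher (against 4.07%). With 50 nM for 24 h, 6 members were called (8.22%, against 8.02% of all genes), 4 lower (against 4.36%) and 2 higher (against 3.66%). With 50 nM for 12 h, 9 members were called (12.3%, against 5.52%), all lower (against 2.85% of all genes; 2.66% of all genes were higher). Changes of more than 1.5-fold were called in 2, 1 and 3 members for 100 nM, 50 nM 24 h and 50 nM 12 h (3.45%, 2.8% and 1.75% of all genes). All 3 comparisons share the day 8 DMSO arrays. The share called with 50 nM for 24 h was close to that of all genes. Median log2 fold changes of the members were small, at −0.07, −0.06 and −0.07 for 100 nM, 50 nM 24 h and 50 nM 12 h, where all genes had −0.02, −0.02 and −0.01. With 100 nM, the treated arrays lay wholly below DMSO for 18 members (15.8% of all genes) and wholly above for 7 (12.6%), with 50 nM for 24 h for 17 (15.6%) and 6 (12.5%), and with 50 nM for 12 h for 22 (13.1%) and 5 (10.5%). Every called member had the same sign on each of the 3 slides, as did 42, 37 and 40 of all 73 members. Without the slide correction the counts of called members were 5, 2 and 2, and on slides 2 and 3 alone 2, 2 and 1. Calls that held in all 11 alternative settings were DNAJC22 and HSPA12A with 100 nM, DNAJC22 with 50 nM for 24 h and HSPA1B with 50 nM for 12 h. In bulk RNA, fewer cells of a type and less RNA per cell cannot be told apart.

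**Figure D1:**
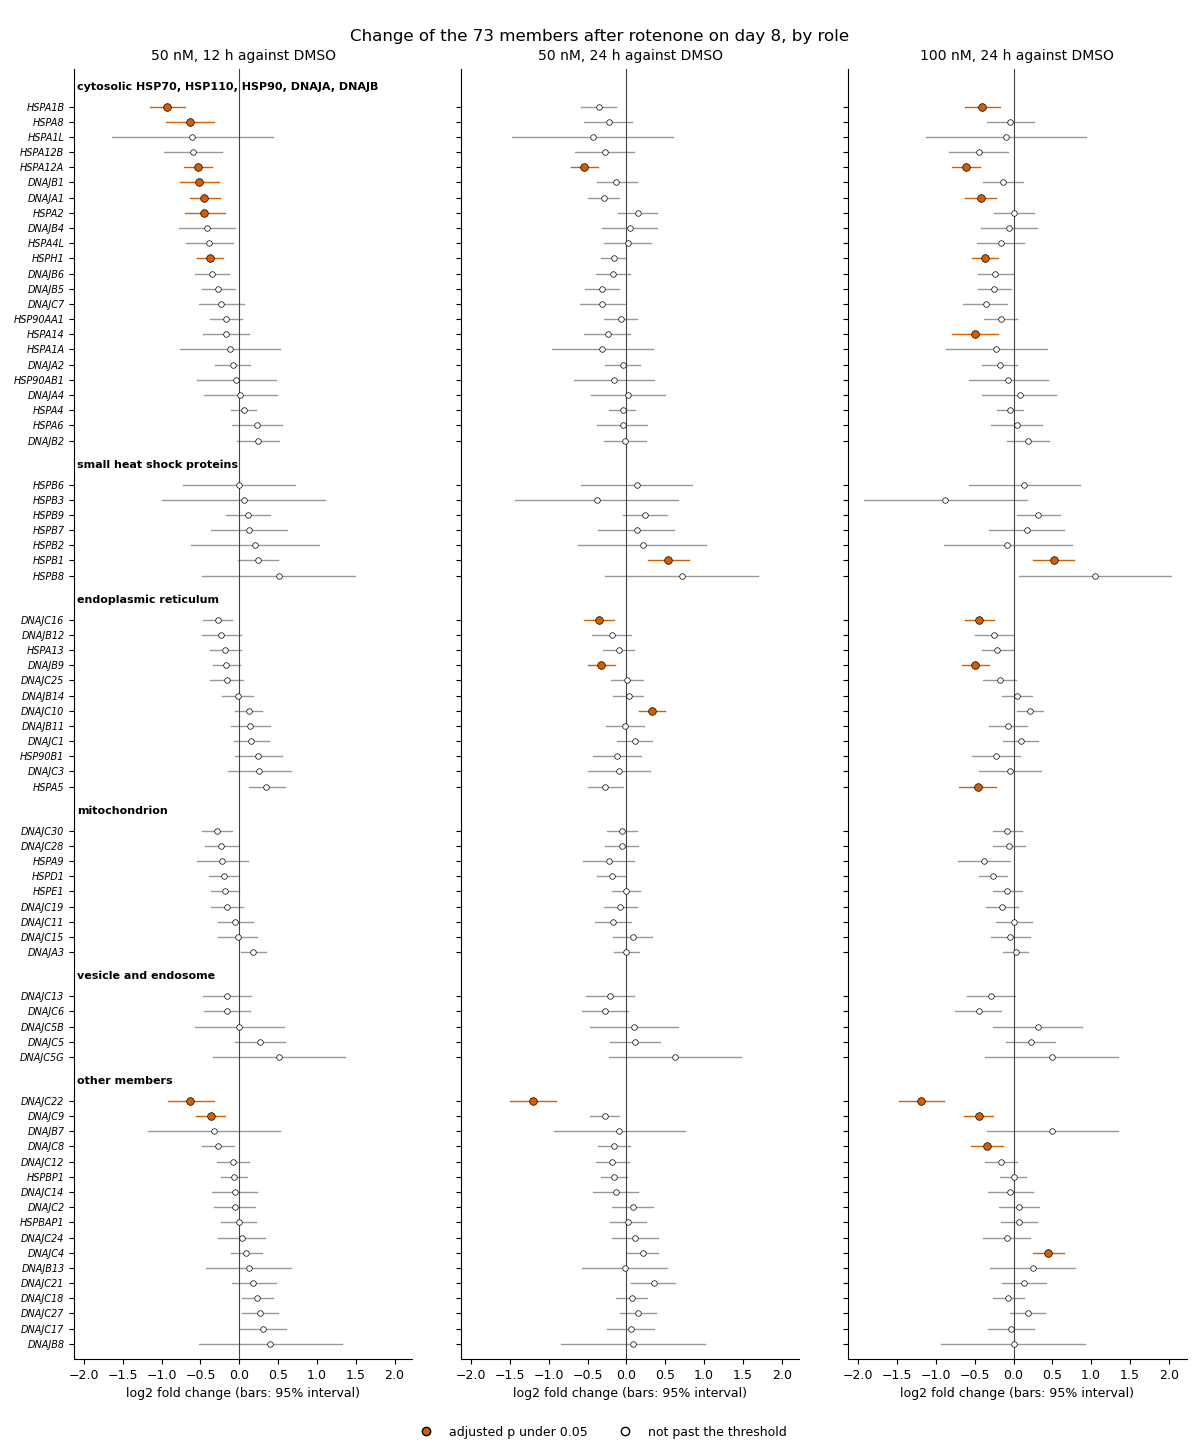
Log2 fold change of each of the 73 members against DMSO on day 8, in rows grouped by role, with the panels from left to right for rotenone at 50 nM (12 h), 50 nM (24 h) and 100 nM (24 h). Points are estimates from 3 against 3 arrays, bars their 95% intervals, and filled points are called genes; at 12 h the 7 called cytosolic members all lie below 0, and at 24 h DNAJC22 lies farthest from 0 among the called members.

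After 12 h of 50 nM, 7 of 23 cytosolic chaperones were downregulated, where 2.85% of all genes were. Of these, mostly HSP70, HSP110, HSP90 and class A and B J-domain members, HSPA1B, HSPA2, HSPA8, HSPA12A, HSPH1, DNAJA1 and DNAJB1 fell. None rose, 16 did not pass the test and 19 lay below 0, with a median of −0.35 on the log2 scale. HSPA1B, the stress-inducible HSP70, stood at 9.37, 9.42 and 9.29 in DMSO and at 8.50, 8.23 and 8.57 after 12 h, so the groups lay wide apart. The log2 fold change of −0.93 (SE 0.108, adjusted p = 5.4e-05) was a 1.90-fold decrease, with −0.86, −1.2 and −0.72 on slides 1, 2 and 3. HSPA1A codes for a near-identical protein and its own probe was well above background on 3 of 24 arrays, so which of the copies the HSPA1B probe reads is uncertain.

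HSPA8, the constitutive HSC70 of every cell, stood at 13.73, 13.58 and 13.41 in DMSO and at 12.96, 13.09 and 12.76 after 12 h, a 1.55-fold decrease (log2 fold change −0.64, SE 0.144, adjusted p = 0.012). DNAJB1, the class B partner of HSP70 in disaggregation, stood at 8.77, 9.02 and 8.74 in DMSO and at 8.22, 8.42 and 8.34 after 12 h (−0.52, SE 0.122, adjusted p = 0.015). In both genes all 12 h arrays lay below all DMSO arrays. HSPA2, an HSP70 best known from testis, went from 7.33, 7.18 and 7.24 to 6.77, 6.69 and 6.95 (−0.45, adjusted p = 0.038). These calls depended on single arrays: HSPA8 missed the threshold without day 8 DMSO replicate 1 or 12 h replicate 3 (adjusted p up to 0.068), DNAJB1 without DMSO replicate 2 or 12 h replicate 1 (up to 0.089), and HSPA2 without any array of either group other than 12 h replicate 3 (up to 0.15).

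DNAJA1, a class A J-domain protein, stood at 12.06, 12.11 and 12.12 in DMSO and at 11.51, 11.80 and 11.62 after 12 h. It fell by 0.45 on the log2 scale (adjusted p = 0.0068). HSPH1, the HSP110 nucleotide exchange factor, went from 10.28, 10.20 and 10.34 to 9.77, 9.88 and 10.04 (−0.38, adjusted p = 0.0077). HSPA12A, an atypical HSP70 abundant in brain, went from 11.89, 11.84 and 11.84 to 11.30, 11.36 and 11.33, the tightest of these changes (−0.53, adjusted p = 0.0011). The calls of HSPA1B, DNAJA1, HSPH1 and HSPA12A held without any single array of their groups.

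After 24 h several of these genes overlapped DMSO again. HSPA8 stood at 13.08, 13.58 and 13.36 with 50 nM and at 13.55, 13.68 and 13.38 with 100 nM, overlapping DMSO in both groups (log2 fold changes −0.23 and −0.04, adjusted p = 0.43 and 0.94). DNAJB1 overlapped DMSO too (−0.13 and −0.14, adjusted p = 0.67 and 0.62), and HSPA2 stood at 7.41, 7.53 and 7.24 with 50 nM and 7.21, 7.40 and 7.16 with 100 nM. HSPA1B remained below every DMSO array, at 9.19, 8.96 and 8.87 with 50 nM (−0.35, adjusted p = 0.051) and at 8.89, 9.09 and 8.89 with 100 nM (−0.41, SE 0.108, adjusted p = 0.021). Without day 8 DMSO replicate 1 or 2, or 100 nM replicate 1 or 3, its 100 nM call was lost (adjusted p up to 0.092).

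Of the 23 cytosolic members, 5 fell with 100 nM (HSPA1B, HSPA12A, HSPA14, HSPH1 and DNAJA1) and 1 with 50 nM for 24 h (HSPA12A). Of all genes, 5.41% fell with 100 nM and 4.36% with 50 nM for 24 h. None of the 23 rose, and 19 lay below 0 in each, with a median of −0.16 in both. HSPA12A stood at 11.47, 11.17 and 11.32 with 50 nM and at 11.23, 11.17 and 11.35 with 100 nM (−0.54 and −0.61, adjusted p = 0.00061 and 0.00015). DNAJA1 stood at 11.79, 11.63 and 11.60 with 100 nM (−0.42, adjusted p = 0.0063), and HSPH1 at 9.85, 9.97 and 9.89 (−0.37, adjusted p = 0.0051). For all 3 genes the 100 nM arrays lay below the DMSO arrays. HSPA14, the ribosome-associated HSP70, went from 9.33, 9.08 and 9.38 to 8.69, 8.79 and 8.83 (−0.49, adjusted p = 0.031), a call that was lost on leaving out any array of either group other than DMSO replicate 2 (adjusted p up to 0.12). HSP90AA1 and HSP90AB1, the inducible and the constitutive cytosolic HSP90, did not pass the test with 100 nM (−0.16 and −0.07, adjusted p = 0.41 and 0.94).

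**Figure D2:**
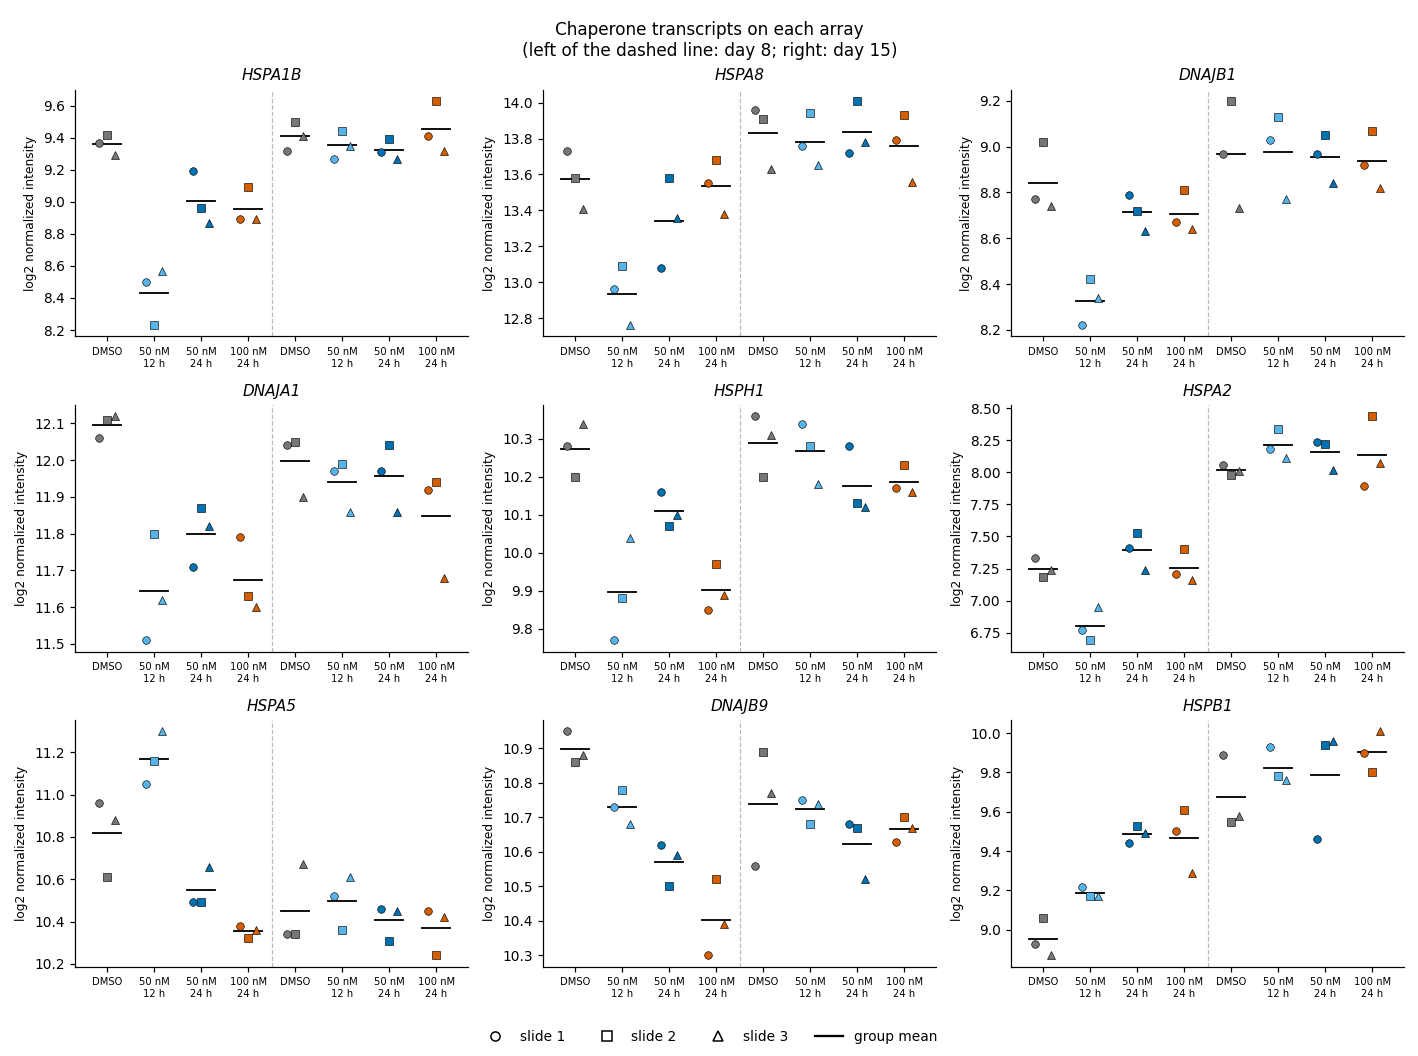
Normalized log2 intensity of 9 chaperone genes on each of the 24 arrays, with 1 panel per gene, groups along the horizontal axis (day 8 left of the dashed line, day 15 right of it), marker shape giving the slide and a bar the group mean. HSPA1B, HSPA8, DNAJB1 and HSPA2 were lowest at 12 h on day 8, HSPA5 was highest at 12 h, and HSPB1 stood higher in the 24 h groups than in DMSO on day 8. Vertical axes differ between panels and do not start at 0.

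In the ER, HSPA5, DNAJB9 and DNAJC16 were the 3 of 12 members that fell with 100 nM, where 5.41% of all genes did. HSPA5 (BiP), the ER's HSP70 and the sensor that holds the unfolded protein response off, stood at 10.96, 10.61 and 10.88 in DMSO and at 11.05, 11.16 and 11.30 after 12 h of 50 nM. All 12 h arrays lay above all DMSO arrays, although the difference of 0.35 missed the threshold (adjusted p = 0.077). After 24 h, HSPA5 stood at 10.49, 10.49 and 10.66 with 50 nM and at 10.38, 10.32 and 10.36 with 100 nM. The 100 nM change was −0.46 (SE 0.112, adjusted p = 0.011), the 50 nM change −0.27 (adjusted p = 0.17), and the 100 nM call was lost without DMSO replicate 1 or 3 (adjusted p up to 0.069).

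DNAJB9 (ERdj4), a partner of BiP in the disposal of misfolded proteins, stood at 10.95, 10.86 and 10.88 in DMSO and at 10.30, 10.52 and 10.39 with 100 nM (−0.49, SE 0.0836, adjusted p = 0.00076). With 50 nM for 24 h it stood below DMSO and overlapped 100 nM, at 10.62, 10.50 and 10.59 (−0.33, adjusted p = 0.02), where the call was lost without DMSO replicate 1 or 3 or 50 nM replicate 2 or 3 (up to 0.081). DNAJC16, a J-domain protein of the ER membrane, went from 9.39, 9.22 and 9.19 to 8.78, 8.89 and 8.80 with 100 nM (−0.44, adjusted p = 0.0033) and to 9.03, 8.77 and 8.94 with 50 nM for 24 h (−0.35, adjusted p = 0.019, lost without DMSO replicate 1 or 50 nM replicate 2, up to 0.11). On the deposited normalized values neither DNAJC16 call held (−0.15 and −0.18, adjusted p = 0.52 and 0.42). DNAJC10 (ERdj5), the reductase among BiP's partners, ran the other way with 50 nM for 24 h, from 9.33, 9.09 and 9.07 to 9.51, 9.55 and 9.43 (0.33, SE 0.0811, adjusted p = 0.014); without DMSO replicate 2 or 3 or 50 nM replicate 1 or 2 it was not called (up to 0.077).

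Of 12 ER members, 3 fell with 100 nM (median −0.20, 9 below 0), where 5.41% of all genes fell. With 50 nM for 24 h, 2 fell and 1 rose (median −0.10), where 4.36% of all genes fell and 3.66% rose. None was called at 12 h (5.52% of all genes), where 6 lay above and 6 below 0 (median 0.05). HSP90B1 (GRP94), the ER's HSP90 whose promoter holds 2 ER stress elements, was not called with 100 nM (−0.23, adjusted p = 0.44) or after 12 h (0.24, adjusted p = 0.46). DNAJC3 (p58IPK), which restrains the kinase PERK, had 100 nM and 12 h values of −0.04 and 0.26 (adjusted p = 0.95 and 0.58).

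HSPB1 was the called small heat shock protein. It codes for HSP27, a chaperone of actin filaments and unfolding proteins, and stood at 8.93, 9.06 and 8.87 in DMSO, at 9.44, 9.53 and 9.49 with 50 nM for 24 h and at 9.50, 9.61 and 9.29 with 100 nM. The 24 h arrays lay above every DMSO array, and the log2 fold changes were 0.54 (SE 0.125, adjusted p = 0.01) and 0.52 (SE 0.125, adjusted p = 0.012). Its 3 probes gave 0.59, 0.61 and 0.35 with 100 nM. After 12 h it stood at 9.22, 9.17 and 9.17, also above DMSO but not called (0.24, adjusted p = 0.37). Without day 8 DMSO replicate 3 neither 24 h call held, and the 100 nM call was also lost without 100 nM replicate 2 (adjusted p 0.051 for 50 nM and up to 0.061 for 100 nM).

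Of the 7 small heat shock proteins, 5 lay above 0 with 100 nM (median 0.17), 6 with 50 nM for 24 h (0.21) and 7 after 12 h (0.13). Only 4 of the 7 were well above background on every array, without HSPB6, HSPB7 and HSPB8. The medians with 100 nM and after 12 h were the values of HSPB7, so these counts and medians rest partly on dim probes. HSPB8, which acts with BAG3 in selective autophagy, was not well above background on any day 8 DMSO array (3.80, 3.40 and 4.22) and was on 2 of the 3 arrays with 100 nM (4.63, 4.86 and 5.08). The ratio to the detection limit of the control arrays was 1.99-fold. It divides the mean of the treated arrays by a control mean. That mean takes the dimmest signal well above background on each control array, or the probe's own signal where that is higher. The ratio leaves out the spread between arrays and is not a lower limit for the change. The fitted log2 change was 1.05 (interval 0.07 to 2.03, adjusted p = 0.2). BAG3 itself had −0.12 with 100 nM (adjusted p = 0.68).

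None of the 9 mitochondrial members passed the test on day 8 in any of the 3 comparisons. Of all genes, 9.48% (100 nM), 8.02% (50 nM 24 h) and 5.52% (50 nM 12 h) did, so none of 9 is close to these shares. The medians of the 9 were −0.08 (100 nM), −0.06 (50 nM 24 h) and −0.19 (50 nM 12 h), with 7, 7 and 8 of the 9 below 0. HSPD1 (HSP60), the mitochondrial chaperonin, stood at 14.83, 14.54 and 14.59 in DMSO and at 14.39, 14.53 and 14.26 with 100 nM (−0.26, adjusted p = 0.074). HSPE1 (HSP10), its lid, stood at 14.01, 13.89 and 14.06 against 13.90, 13.92 and 13.92 (−0.08, adjusted p = 0.73). HSPA9 (mortalin), the HSP70 of the matrix, had −0.38 (adjusted p = 0.16). Among the 5 members of vesicles and endosomes none was called on day 8 either; DNAJC6 (auxilin), which strips clathrin from synaptic vesicles, went from 10.71, 10.89 and 10.87 to 10.25, 10.37 and 10.49 with 100 nM, without overlap and just above the threshold (−0.45, adjusted p = 0.05 after rounding; 0.015 with the slide as a replicate block). DNAJC13 (RME-8), of endosomes, had −0.29 (adjusted p = 0.29), and DNAJC5 (cysteine string protein of synaptic vesicles) 0.22 (adjusted p = 0.5).

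Outside these compartments, DNAJC22 had the largest decrease of any called member at 24 h. DNAJC22 codes for a J-domain protein with several membrane passes and stood at 7.35, 7.51 and 7.76 in DMSO. With 50 nM it stood at 7.02, 6.68 and 7.06 after 12 h and at 6.49, 6.44 and 6.09 after 24 h, and with 100 nM at 6.45, 6.47 and 6.14. No treated array reached the DMSO range. The log2 fold changes were −0.63 (adjusted p = 0.012), −1.20 (3.1e-05) and −1.19 (SE 0.142, 2.5e-05), the last a 2.28-fold decrease that was −0.90, −1.04 and −1.63 on slides 1 to 3. The 24 h calls held without any single array, while the 12 h call was lost without DMSO replicate 3 or 12 h replicate 2 (adjusted p up to 0.079).

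DNAJC9, a histone chaperone with a J-domain, stood at 10.30, 10.43 and 10.52 in DMSO, at 9.94, 10 and 10.21 after 12 h (−0.37, adjusted p = 0.02) and at 9.89, 10.01 and 9.99 with 100 nM (−0.45, adjusted p = 0.003). Its 12 h call was lost without DMSO replicate 2 or 3 or 12 h replicate 1 or 2 (up to 0.099). On these arrays the 6 markers of dividing cells summed to 8.37 to 9.12 in DMSO, 7.93 to 8.41 after 12 h and 7.88 to 8.57 with 100 nM (median change with 100 nM −0.37, none called), and their part in the DNAJC9 result was not tested. DNAJC8, a splicing-associated J-domain protein, went from 8.86, 8.88 and 8.84 to 8.62, 8.52 and 8.42 with 100 nM (−0.34, adjusted p = 0.034), and the call held only on leaving out 100 nM replicate 1 (up to 0.15 otherwise). DNAJC4, a J-domain protein, rose from 9.47, 9.46 and 9.56 to 9.90, 9.92 and 10.03 with 100 nM (0.45, adjusted p = 0.0044), without overlap. DNAJC12, which assists the aromatic amino acid hydroxylases including tyrosine hydroxylase, had −0.16 (adjusted p = 0.43). Of the 9 neuronal markers, MAP2 and SNAP25 fell with 100 nM (−0.57 and −0.30, adjusted p = 0.0028 and 0.041) and none rose (median −0.07), while their summed level was 18.03 to 18.25 in DMSO and 18 to 18.03 with 100 nM; their part in the member results was not tested.

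Genes that work beside the members were followed as fixed lists. Of all genes, 4.07% rose and 5.41% fell with 100 nM, and 3.66% rose and 4.36% fell with 50 nM for 24 h. After 12 h, 2.66% rose and 2.85% fell. HSF1, the transcription factor of the heat shock response, was itself upregulated in all 3 comparisons, by 0.50 (100 nM, SE 0.0955, adjusted p = 0.0019), 0.40 (50 nM 24 h, 0.012) and 0.65 (50 nM 12 h, 0.00043). AHSA1, the activator of HSP90's ATPase, fell in all 3, by 0.25, 0.29 and 0.28 (adjusted p = 0.031, 0.013 and 0.021). With 100 nM these were the called genes among 23 HSF and co-chaperone genes (median −0.08). Of 13 chaperonin and prefoldin genes, the ring subunits CCT2 and CCT3 fell with 100 nM (−0.30 and −0.23, adjusted p = 0.031 and 0.025). With 50 nM for 24 h the subunits TCP1 and CCT3 fell (−0.31 and −0.26, adjusted p = 0.046 and 0.013) and the prefoldin PFDN2 rose (0.33, 0.03), and none of the list was called after 12 h.

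Of 21 genes of ER folding and the unfolded protein response, 3 fell with 100 nM (5.41% of all genes) and none rose (median −0.18). They were the disulfide isomerase PDIA3 (−0.42, adjusted p = 0.038), the response gene HERPUD1 (−0.46, 0.019) and the degradation adaptor SEL1L (−0.63, 0.02). HERPUD1 also fell with 50 nM for 24 h (−0.43, 0.029), and none was called after 12 h (median −0.04). DDIT3 (CHOP), a late target of ER stress, had −0.24 with 100 nM (adjusted p = 0.25). Of 13 mitochondrial chaperones and proteases outside the families, the disaggregase CLPB and the transcription factor ATF5 rose with 100 nM (0.43 and 0.50, adjusted p = 0.006 and 0.016) and with 50 nM for 24 h (0.33 and 0.42, 0.038 and 0.049); after 12 h CLPB was the called gene (0.57, 0.0014).

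Time was compared directly at 50 nM, 24 h against 12 h. Without a 12 h DMSO group, exposure length cannot be told apart from other differences between these cultures. Of the members 3 were called (4.11%, against 0.537% of all genes), HSPA1B and HSPA2 higher (0.268% of all genes) and HSPA5 lower (0.268%), and 2 of the 3 changed by more than 1.5-fold (0.226% of all genes). The 24 h arrays lay wholly above the 12 h arrays for 14 members (8.73% of all genes) and wholly below for 10 (8.2%). HSPA5 differed by −0.62 (SE 0.112, adjusted p = 0.012), a 1.54-fold lower level at 24 h, and by −0.55, −0.67 and −0.65 on slides 1 to 3. HSPA1B differed by 0.57 (SE 0.108, adjusted p = 0.018) and HSPA2 by 0.59 (SE 0.122, adjusted p = 0.03), with no overlap of the groups in any of the 3 genes. HSPA5 was not called without 12 h replicate 2 or 24 h replicate 1 or 2 (adjusted p up to 0.069), HSPA1B without replicate 1 or 2 of either group (up to 0.11), and HSPA2 without any array other than 12 h replicate 3 (up to 0.15). HSPA8 and DNAJB1 were higher at 24 h by 0.40 and 0.39 without passing the test (adjusted p = 0.27 and 0.19), and DNAJC22 had −0.58 (adjusted p = 0.074). The cytosolic members had a median of 0.10, with 14 of 23 above 0.

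Dose was compared at 24 h, 100 nM against 50 nM. No member was called by limma (nor any of the 21239 genes), and 2 members had an unadjusted p under 0.05, HSPH1 (−0.21, 95% interval −0.38 to −0.04) and DNAJC4 (0.24, 0.04 to 0.44), where 885 of all genes (4.17%) did. DNAJC22 differed by 0.02 (−0.28 to 0.31), HSPB1 by −0.02 (−0.28 to 0.24), HSPA1B by −0.05 (−0.28 to 0.17), HSPA12A by −0.07 (−0.25 to 0.11) and HSPA5 by −0.19 (−0.43 to 0.04). The intervals leave room for differences in either direction, and a missed threshold does not show equal levels.

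After wash-out, none of the 73 members was called on day 15 in any rotenone group, as was the case for all genes (0% called by limma). At an unadjusted p under 0.05 there were 3 members with 100 nM (1532 of all genes, 7.21%), 2 with 50 nM for 24 h (697, 3.28%) and 1 with 50 nM for 12 h (737, 3.47%). The treated arrays lay wholly above DMSO for 1, 2 and 2 members (3%, 3.71% and 3.07% of all genes) and wholly below for 6, 3 and 2 (4.84%, 3.45% and 4.36%). The members' medians were −0.04, −0.01 and 0.00, where all genes had −0.03, 0.00 and −0.01. DNAJC22 stood at 7.51, 7.24 and 7.59 in day 15 DMSO and at 7.47, 7.39 and 7.38 after 100 nM, within the DMSO range (−0.03, 95% interval −0.33 to 0.27). HSPA12A stood at 13.05, 13.28 and 13.18 and at 13.08, 13.11 and 13.28 (−0.02, −0.20 to 0.17). HSPA1B stood at 9.32, 9.50 and 9.41 and at 9.41, 9.63 and 9.32 (0.04, −0.18 to 0.27). In all 3 genes the groups overlapped. HSPB1 was at 9.89, 9.55 and 9.58 in DMSO and at 9.90, 9.80 and 10.01 after 100 nM (0.23, −0.03 to 0.49, adjusted p = 0.72).

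The members with the smallest p on day 15 after 100 nM were DNAJC18, a J-domain protein (−0.30, adjusted p = 0.56), HSPA4L of the HSP110 family (0.44, 0.59) and DNAJC7, a co-chaperone of HSP70 and HSP90 (−0.35, 0.64). HSPA4L stood at 6.55, 6.41 and 6.55 in DMSO and at 6.74, 7.13 and 6.96 after 100 nM, without overlap. After 50 nM for 24 h they were DNAJB7 (1.08), HSPA13 (−0.23) and HSPB6 (−0.70), and after 50 nM for 12 h DNAJC7 (−0.30), DNAJB14 (−0.19) and DNAJC8 (0.19), each with an adjusted p of 1. DNAJB7 was well above background on 1 of all 24 arrays. Day 15 100 nM replicate 3 had the widest deviations from its group over all genes (residual SD 0.451, other arrays 0.205 to 0.312), and it enters the 100 nM values. None of the genes in the lists beside the members was called on day 15 either.

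**Figure D3:**
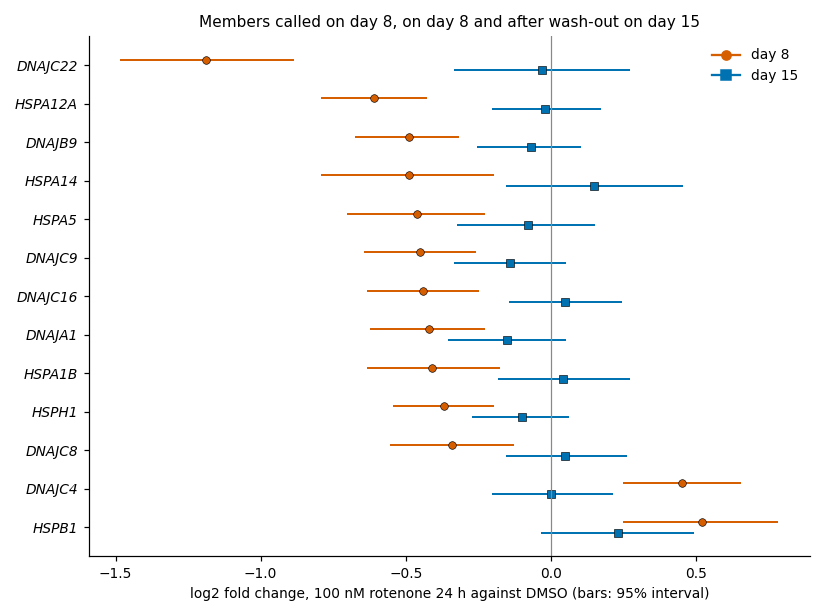
Log2 fold change of the 13 members called on day 8 with 100 nM for 24 h (circles), beside the same genes on day 15 after wash-out (squares), each against the DMSO arrays of its own day, with 95% intervals. The genes were chosen by their day 8 values; every day 15 interval includes 0, with estimates from −0.15 (DNAJA1) to 0.23 (HSPB1).

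Whether the 100 nM change itself differed between the days was tested as the day 15 change minus the day 8 change. Of the members 3 were called (4.11%, against 2.44% of all genes), each with a higher value on day 15 (1.15% of all genes; 1.29% were lower) and 2 by more than 1.5-fold (1.92%): DNAJC22 by 1.16 (SE 0.201, adjusted p = 0.0032), HSPA12A by 0.59 (SE 0.123, adjusted p = 0.012) and DNAJC16 by 0.49 (SE 0.127, adjusted p = 0.048). The first 2 held without any single array of the 4 groups, whereas DNAJC16 held only on leaving out day 15 DMSO replicate 2 (adjusted p up to 0.13 otherwise). DNAJC16 was also not called with the slide as a replicate block (0.49, adjusted p = 0.065) or on the deposited values (0.20, 0.6), and was called in 4 of the 11 alternative settings, HSPA12A in 6 and DNAJC22 in 10. DNAJB9 (0.42, adjusted p = 0.069) and DNAJC4 (−0.45, 0.093) came next. For the other members called on day 8 the loss of the call on day 15 is not shown to be a difference between the days; HSPA1B had 0.45 (adjusted p = 0.15), HSPA5 0.38 (0.26) and HSPB1 −0.29 (0.51).

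Without rotenone, members were called between the days about as often as all genes. From day 8 to day 15 in DMSO, 17 members were called (23.3%, against 23.2% of all genes), 8 higher (10.1% of all genes) and 9 lower (13.2% of all genes), so the share was that of all genes; 7 of the 17 changed by more than 1.5-fold (12.2% of all genes). The day 15 arrays lay wholly above those of day 8 for 12 members (17.4% of all genes) and wholly below for 17 (22.6%). All but DNAJC30 of the called members had the same sign on each slide. The 3 day 8 and the 3 day 15 arrays of these comparisons are the controls of the rotenone comparisons above.

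Between the days, HSPB1, HSPB3 and HSPB7 rose among the small heat shock proteins and DNAJC6 among the 5 vesicle and endosome members. Of the 7 small heat shock proteins, 3 were higher (10.1% of all genes), 6 lay above 0 and the median was 0.82. That median was the value of HSPB7, and only 4 of the 7 were well above background on every array, without HSPB6, HSPB7 and HSPB8. The count above 0 and the median thus rest partly on dim probes. HSPB1 went from 8.93, 9.06 and 8.87 on day 8 to 9.89, 9.55 and 9.58 on day 15 (0.72, adjusted p = 0.00027), and its 3 probes gave 0.89, 0.76 and 0.52. HSPB7, known from heart muscle, was well above background on no day 8 array (4.01, 3.91 and 3.66). It was so on every day 15 array (4.59, 4.46 and 5.0), and the ratio to the detection limit was 1.76-fold. The fitted log2 change was 0.82 (interval 0.33 to 1.31, adjusted p = 0.015). That change was 0.23 under a normexp offset of 50 and 2.4 from the processed signal, so the ratio is not a lower limit. The HSPB7 call was lost without day 8 or day 15 replicate 3 (adjusted p up to 0.077). HSPB3, which assembles with HSPB2, went from 6.45, 7.5 and 6.60 to 8.61, 7.54 and 8.67 (1.42, SE 0.502, adjusted p = 0.047); the arrays of slide 2 nearly met, with a difference of 0.04 there against 2.16 and 2.07 on slides 1 and 3, and the call was lost without replicate 1 or 3 of either day (up to 0.15) and with the slide as a replicate block (adjusted p = 0.073). HSPB8 was not well above background on day 8 and stood at 5.30, 5.04 and 4.89 on day 15. Its ratio to the detection limit was 2.32-fold, and its fitted log2 change was 1.27 (interval 0.29 to 2.25, adjusted p = 0.058).

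HSPA12A rose from 11.89, 11.84 and 11.84 to 13.05, 13.28 and 13.18, the change with the smallest p of any member (1.31, SE 0.0868, adjusted p = 2e-09). DNAJC6 (auxilin) rose from 10.71, 10.89 and 10.87 to 11.81, 11.73 and 12.00 (1.02, SE 0.141, adjusted p = 2.4e-05). HSPA2 rose from 7.33, 7.18 and 7.24 to 8.06, 7.98 and 8.01 (0.77, adjusted p = 0.00012). The day 15 arrays lay above all day 8 arrays in each of these genes, and the 3 calls and that of HSPB1 held without any single array. Of the 23 cytosolic members 4 rose and none fell (median −0.03), where 10.1% of all genes rose and 13.2% fell. Beside HSPA12A and HSPA2 these were HSP90AA1 and DNAJB6, a suppressor of polyglutamine aggregation, at 0.31 and 0.34 (adjusted p = 0.032 and 0.026). The HSP90AA1 call rested on the dimmest of its 3 probes (0.99), the other 2 giving −0.05 and −0.02, and both calls were lost without day 8 replicate 1 or 2 or day 15 replicate 2, that of HSP90AA1 also without day 15 replicate 1 and that of DNAJB6 without day 8 replicate 3 (adjusted p up to 0.14 and 0.13).

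Most ER and mitochondrial members did not pass the test between the days. Of 12 ER members, 3 fell and 11 lay below 0 (median −0.16). Of 9 mitochondrial members, 3 fell and all 9 lay below 0 (median −0.11). Of all genes 13.2% fell, with a median of −0.04. HSPA5 went from 10.96, 10.61 and 10.88 to 10.34, 10.34 and 10.67 (−0.37, adjusted p = 0.022). DNAJC3 went from 6.54, 6.72 and 6.21 to 5.76, 5.75 and 6.05 (−0.64, adjusted p = 0.022), and DNAJC16 fell by 0.33 (adjusted p = 0.012). HSPD1 went from 14.83, 14.54 and 14.59 to 14.25, 14.39 and 14.37 (−0.32, adjusted p = 0.014), and DNAJC28 and DNAJC30, the latter tied to the turnover of complex I, had −0.33 and −0.29 (0.023 and 0.025).

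Several of these calls were lost without replicate 1 of either day. HSPA5 and DNAJC28 were not called without replicate 1 of either day, day 8 replicate 3 or day 15 replicate 2 (adjusted p up to 0.11 and 0.1), DNAJC3 without replicate 1 or 2 of either day (up to 0.1), DNAJC16 and HSPD1 without replicate 1 of either day (up to 0.074 and 0.094), and DNAJC30 without replicate 2 or 3 of either day (up to 0.13). Among the remaining members, HSPBAP1 fell from 8.74, 8.59 and 8.62 to 8.09, 8.16 and 8.15 (−0.52, adjusted p = 0.0018; −0.11, 0.6 on the deposited values) and DNAJC9 fell by 0.39 (adjusted p = 0.0037), both without dependence on a single array. On slides 2 and 3 alone HSPA5, HSPD1 and DNAJC16 were not called (−0.23, −0.17 and −0.18), nor was DNAJC28 under the 75th percentile scaling (−0.16). DNAJC2, the ribosome-associated J-domain protein, fell by 0.41 (adjusted p = 0.02), a call lost without day 8 replicate 1 or 3 or day 15 replicate 1 or 2 (up to 0.11).

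**Figure D4:**
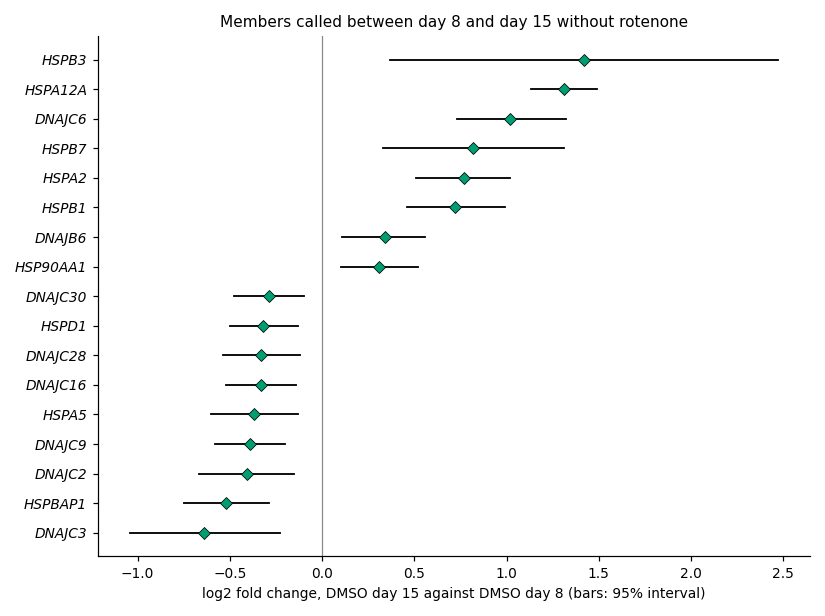
Log2 fold change of the 17 members called between DMSO day 15 and DMSO day 8, sorted by size, with 95% intervals from 3 against 3 arrays. HSPB3 at 1.42 has the widest interval, HSPA12A at 1.31 a narrow one, and DNAJC3 at −0.64 lies lowest.

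Genes of the lists beside the members were also called between the days, where 10.1% of all genes rose and 13.2% fell. Of 21 ER folding genes 6 fell and 1 rose (median −0.23), among them the isomerase PDIA4 (−1.37) and the BiP exchange factor SIL1 (−0.84), while the response factor XBP1 rose (0.35). Of 23 HSF and co-chaperone genes 3 rose and 3 fell, led by CRYAB, the small heat shock protein named αB-crystallin (1.40, adjusted p = 0.0019). In the chaperonin list and in the mitochondrial list 2 genes rose and 2 fell each. All 6 markers of dividing cells fell (median −1.50); their summed level was 8.37 to 9.12 on the day 8 DMSO arrays and 6.61 to 7.34 over all day 15 arrays. Of the 12 dopaminergic markers 5 rose and 2 fell (median 0.36), and their summed level went from 12.9 to 13.05 in day 8 DMSO up to 13.77 to 13.9 in day 15 DMSO. The 2 that fell were TH, the enzyme that makes dopamine's precursor (−2.94, adjusted p = 2.2e-08), and SLC6A3, the dopamine transporter (−2.07). Of 9 neuronal markers 2 rose and 1 fell. The 4 oligodendrocyte-lineage markers summed to 9.49 to 9.64 in day 8 DMSO and 7.15 to 7.36 in day 15 DMSO, where OLIG2, a progenitor factor, was the called gene (−4.00, adjusted p = 1.2e-11). The part of these cell states in the member values was not tested.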

How the data were processed

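RNA of 24 LUHMES samples (8 groups of 3) was hybridised to Agilent SurePrint G3 arrays with Cy3. The authors deposited the scanner output of Agilent Feature Extraction 11.5.1.1 (12.0.0.7 on slide 2), whose intensity columns were used here, and a table of log2 values of 21733 probes, which the authors had deposited after their own background correction, quantile normalization and slide correction (per the submitters' notes in R 3.5); the latter served as an alternative. The array design names its probes on an older human build, and no coordinates were taken from it.

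From the median signal and median background, values were corrected by normexp (offset 0), quantile normalized and corrected for slide 1 against slides 2 and 3 by parametric ComBat with the 8 groups as covariates. A probe was kept if 3 or more arrays showed it above 1.1 times the 0.95 quantile of that array's negative controls. After removal of control spots and 6756 flagged values, spots were averaged to probes and probes to genes, which left 48316 probes, 29393 with a gene name. In RefSeq, 54 members had 1 probe and 19 several. One limma fit (limma 3.58.1, R 4.3.3) of all 24 arrays gave 10 comparisons with 16 residual and 2.37 prior degrees of freedom; it was tested on simulated data. Arrays have no read depth; 3 per group limit the precision.

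Same-numbered arrays share a slide. Before the slide correction their deviations from the group means correlated (84 pairs, r 0.171 to 0.773, median 0.458). For pairs on other slides the median was −0.354 (168 pairs). The shift of slide 1 enters these values, so they do not show that replicates were paired cultures. The main fit held no slide or pair term. The pairing was used for the differences per slide and in the replicate block. Members and lists were chosen with earlier results of these data known. Named were members called in a rotenone comparison, the 3 with the smallest p in each day 15 comparison, the 6 largest called changes in each direction between the days without overlap, the 5 with the smallest p for the difference of days and 20 textbook members; outside this rule DNAJB6, HSPB2, DNAJC30 and the uncalled BAG3 and DDIT3 were named after their values were seen. In the lists beside the members, up to 5 called genes with the smallest p were named. Alternatives were Agilent's processed signal, normexp with an offset of 50, a 75th percentile scaling, no slide correction, slides 2 and 3 alone, a filter on spots well above background, the brightest probe, a fit of the compared groups alone, the slide as a block, the deposited values, and each array left out.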

Additional observations from a re-analysis of the deposited data

Results flagged for a closer look

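Members that differed between conditions in a direct test are listed with their values. None of these calls held in every alternative setting. The 100 nM response was less negative on day 15 than on day 8 for DNAJC22 (day 15 change minus day 8 change 1.16 on the log2 scale), HSPA12A (0.59) and DNAJC16 (0.49). At 50 nM on day 8, the level at 24 h minus that at 12 h was 0.57 for HSPA1B, 0.59 for HSPA2 and −0.62 for HSPA5. The 12 h and 24 h values share no arrays with each other, but each was set against the same DMSO arrays in the report. Without a 12 h DMSO group, the time contrast is a difference in level and not a tested difference in response. Groups of 3 arrays were too small for a test of single outlying samples.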

How the results depend on the processing

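The numbers of members called were 13 (100 nM, day 8), 6 (50 nM 24 h), 9 (50 nM 12 h), 0 in the 3 day 15 comparisons, 17 (DMSO, day 15 against day 8), 0 (100 against 50 nM), 3 (24 against 12 h) and 3 (difference of days). In the same order without those at 0, no slide correction gave 5, 2, 2, 6, 0 and 1, slides 2 and 3 alone 2, 2, 1, 5, 0 and 0, and a fit of the compared groups alone 4, 2, 1, 10, 0 and 1. The fits on slides 2 and 3 and on the compared groups hold fewer arrays by construction; for the others the cause was not tested. With an offset of 50, normexp gave 11 for 50 nM 24 h and 5 for the difference of days, scaling to the 75th percentile 1 for the latter, the filter on spots well above background 10 (50 nM 24 h) and 14 (50 nM 12 h), and the deposited values 10 (50 nM 24 h), 14 (50 nM 12 h), 6 (24 against 12 h) and 5 (difference of days). With the replicate block, which pairs arrays of a slide, the counts were 14, 8, 11, 17, 3 and 3, and it changed no count by more than 1.5 times. Among the changed calls, DNAJC16 (difference of days) and HSPB3 (DMSO days) lost the call and DNAJC6 (100 nM, day 8) gained it. The higher counts for 50 nM mean that other members, not named here, gained it too. The counts at 0 stayed at 0. Leaving out 1 array gave 9 to 11 (100 nM), 3 to 6 (50 nM 24 h), 6 to 9 (50 nM 12 h), 9 to 15 (DMSO days), 0 to 3 (24 against 12 h), 2 to 4 (difference of days) and 0 to 0 in the rest.

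The sign turned for uncalled 100 nM values of DNAJC3 (0.05 with the processed signal, 0.10 on slides 2 and 3, −0.18 to 0.08 without 1 array), HSP90AB1 (0.00 on slides 2 and 3, −0.23 to 0.13 without 1 array), HSPA1A (0.11 processed signal, 0.01 offset 50, 0.15 on slides 2 and 3), HSPA8 (0.01 processed signal, 0.03 with the 75th percentile, 0.04 on slides 2 and 3, −0.12 to 0.04 without 1 array) and HSPE1 (0.03 processed signal, 0.04 with the 75th percentile), and for the called HSP90AA1 value between the days (−0.02 with the brightest probe). With the processed signal the median of all genes was 0.103 for 100 nM on day 8 (−0.022 in the main fit) and 0.153 between the DMSO days (−0.035 in the main fit). With the 75th percentile it was 0.136 for the difference of days (−0.006 in the main fit).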

Other observations

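HSPB2 and HSPB3, which form a complex, were high and low on the same arrays within groups. On day 15 after 50 nM for 24 h, HSPB3 stood at 6.18, 8.14 and 8.17 and HSPB2 at 6.38, 8.00 and 8.26, so replicate 1 was low in both. On day 8 after 50 nM for 24 h, HSPB3 stood at 6.85, 5.68 and 6.87 and HSPB2 at 7.57, 6.65 and 7.55, with replicate 2 low in both. In day 8 DMSO, HSPB3 stood at 6.45, 7.5 and 6.60 and HSPB2 at 6.86, 7.46 and 6.83, with replicate 2 high in both, and in day 15 DMSO at 8.61, 7.54 and 8.67 and at 8.14, 7.49 and 8.43, with replicate 2 low in both. These values were chosen after they were seen and were not tested. HSP90AB1 showed a wide spread of its own between probes, with day 15 against day 8 changes in DMSO of 0.16 and 1.15.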
